A study of Mus musculus with 6 samples.

Results

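The expression of 9 genes that encode neutrophil-attracting chemokines and cytokines of blood cell production was examined in Ki-67 knockout and wild-type 4T1 cells, a carcinoma line of mammary origin from the BALB/c mouse. The genes were the chemokines Cxcl1, Cxcl2, Cxcl3 and Cxcl5, the colony-stimulating factors Csf3, Csf2 and Csf1, and the cytokines Lif and Il6. They were chosen by symbol, with earlier results of these data known. All were found among the 54146 genes counted in each library, and 8 of the 9 had enough reads to be tested. The first group, KO clone 2, and the second, KO clone 1, are separate clones of the line with the genotype Mki67-/-, and the third, WT, is the line with the gene intact. Each group had 2 libraries of ribosome-depleted total RNA, and all 6 came from cells grown in the same medium with 10% serum, with no further treatment given in the labels. Each knockout group is 1 clone, so an effect of losing Ki-67 and a difference between individual clones cannot be told apart. Whether the duplicates were grown as separate cultures is not in the labels, and the p-values reflect the spread between duplicates, which may be technical alone.

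The chemokines Cxcl1, Cxcl2, Cxcl3 and Cxcl5 carry the glutamate-leucine-arginine motif and act on neutrophils through the receptor Cxcr2. Granulocyte colony-stimulating factor, the product of Csf3, drives the production of neutrophils and their release from the bone marrow, and 4T1 tumours are known for the strong granulocyte response they cause in mice. Csf2 encodes the factor for granulocytes and macrophages and Csf1 the factor for macrophages, while Il6 and Lif signal through the shared receptor subunit gp130. The promoters of many of these genes are textbook targets of NF-kappaB, AP-1 and C/EBP, and their mRNAs are short-lived.

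The promoter sequences are shown because the chemokine genes that lie together on chromosome 5 share an identical element at a similar place. Promoters are from RefSeq (GRCm38.p6). In all, 7 of the 9 genes were matched in the table used here, and those of Cxcl5 and Csf3 were not analysed here. The 250 bases before the start of Cxcl1 (chr5:90890995-90891244), Cxcl2 (chr5:90903649-90903898) and Cxcl3 (chr5:90785851-90786100), all on the plus strand, read 5′ to 3′ as follows, with every match to the kappaB consensus in capitals:
Cxcl1: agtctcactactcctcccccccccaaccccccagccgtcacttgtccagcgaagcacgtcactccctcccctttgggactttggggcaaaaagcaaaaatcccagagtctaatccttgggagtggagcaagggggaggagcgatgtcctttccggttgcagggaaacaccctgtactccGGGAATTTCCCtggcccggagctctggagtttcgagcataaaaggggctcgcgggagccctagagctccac
Cxcl2: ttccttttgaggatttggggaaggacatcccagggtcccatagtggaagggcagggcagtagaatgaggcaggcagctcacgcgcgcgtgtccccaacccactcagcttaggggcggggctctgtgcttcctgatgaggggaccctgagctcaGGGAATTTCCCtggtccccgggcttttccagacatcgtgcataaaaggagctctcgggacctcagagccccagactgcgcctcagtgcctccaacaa
Cxcl3: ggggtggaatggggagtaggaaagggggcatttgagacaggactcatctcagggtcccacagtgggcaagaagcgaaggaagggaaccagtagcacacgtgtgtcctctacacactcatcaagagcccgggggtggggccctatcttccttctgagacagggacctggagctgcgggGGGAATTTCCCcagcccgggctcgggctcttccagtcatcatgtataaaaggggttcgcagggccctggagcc
In each of the 3 promoters the run GGGAATTTCCC holds 2 overlapping matches, 1 on each strand. It ends 61 bases before the start of Cxcl1, 87 bases before that of Cxcl2 and 63 bases before that of Cxcl3. A kappaB match on either strand was also found for Csf1 (GGAAAGTCCC), Lif (GGGACGCCCC) and Il6 (GGGATTTTCC) and was not in the window of Csf2. That window lies upstream of the start of Csf2 in GENCODE M21, the annotation used here for coordinates, and the bases between them were not searched. Such a match occurs in 7.25% of the 32851 RefSeq promoters of this length. The AP-1 motif TGANTCA, found in 6.75% of promoters, was present in those of Lif (TGACTCA) and Il6 (TGAGTCA). The C/EBP motif TTGCNNAA, searched on both strands and found in 9.56%, was present in those of Il6 (TTGTGCAA, the reverse complement of a match) and Csf2 (TTGCCCAA). No other overlap between matches occurred, and a match describes the letters only, not binding.

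The 6 libraries held between 10429000 reads assigned to genes (WT replicate 1) and 22658000 (KO clone 1 replicate 2), and 13755 genes were tested. Levels are given as CPM, read counts relative to the scaled library size, with means ± SD of n = 2 libraries. Mki67 had 39.9 and 52.8 CPM in KO clone 2, 85.8 and 103 CPM in KO clone 1, and 736 and 647 CPM in WT. The targeted gene was thus lower in every knockout library, though counts over a whole gene cannot locate the alteration. Mammary epithelial markers were present, with 7 of 8 tested and summed levels of 5711 and 5328 CPM in KO clone 2, 5362 and 5400 CPM in KO clone 1, and 3330 and 3774 CPM in WT. The basal keratin Krt5 had no read. None of the 12 neutrophil markers was tested and 5 (S100a9, Mpo, Camp, Retnlg and Csf3r) had no read. Their summed level was 0.589 and 0.648 CPM in KO clone 2, 0.132 and 0.0899 CPM in KO clone 1, and 0.0986 and 0.118 CPM in WT. The higher sum in KO clone 2 came mostly from S100a8, at 0.294 and 0.432 CPM there and without a read elsewhere. Of the 9 macrophage markers 3 were tested, and Adgre1 and Fcgr1 had no read. Their summed level was 29.0 and 25.2 CPM in KO clone 2, 12.4 and 12.8 CPM in KO clone 1, and 24.2 and 22.5 CPM in WT. Within that sum Cd14, higher in KO clone 2 like the chemokines, averaged 20.9 ± 2.03 CPM in KO clone 2, 7.48 ± 0.672 CPM in KO clone 1 and 9.23 ± 2.31 CPM in WT. Cd68 averaged 2.82 ± 0.931 CPM in KO clone 2, 2.74 ± 0.182 CPM in KO clone 1 and 12.9 ± 3.68 CPM in WT. The part of these markers in the results was not tested. Of 7 fibroblast markers only Pdgfra was tested, and it made up nearly all of the sums of 14.6 and 14.7 CPM in KO clone 2, 14.5 and 14.6 CPM in KO clone 1, and 39.6 and 39.4 CPM in WT. No endothelial or T cell marker of the 5 and 4 listed was tested. The neutrophil markers that define the cell were thus at or near 0 in all libraries, while the chemokine Cxcl1, described next, reached 318 CPM.

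**Figure D1:**
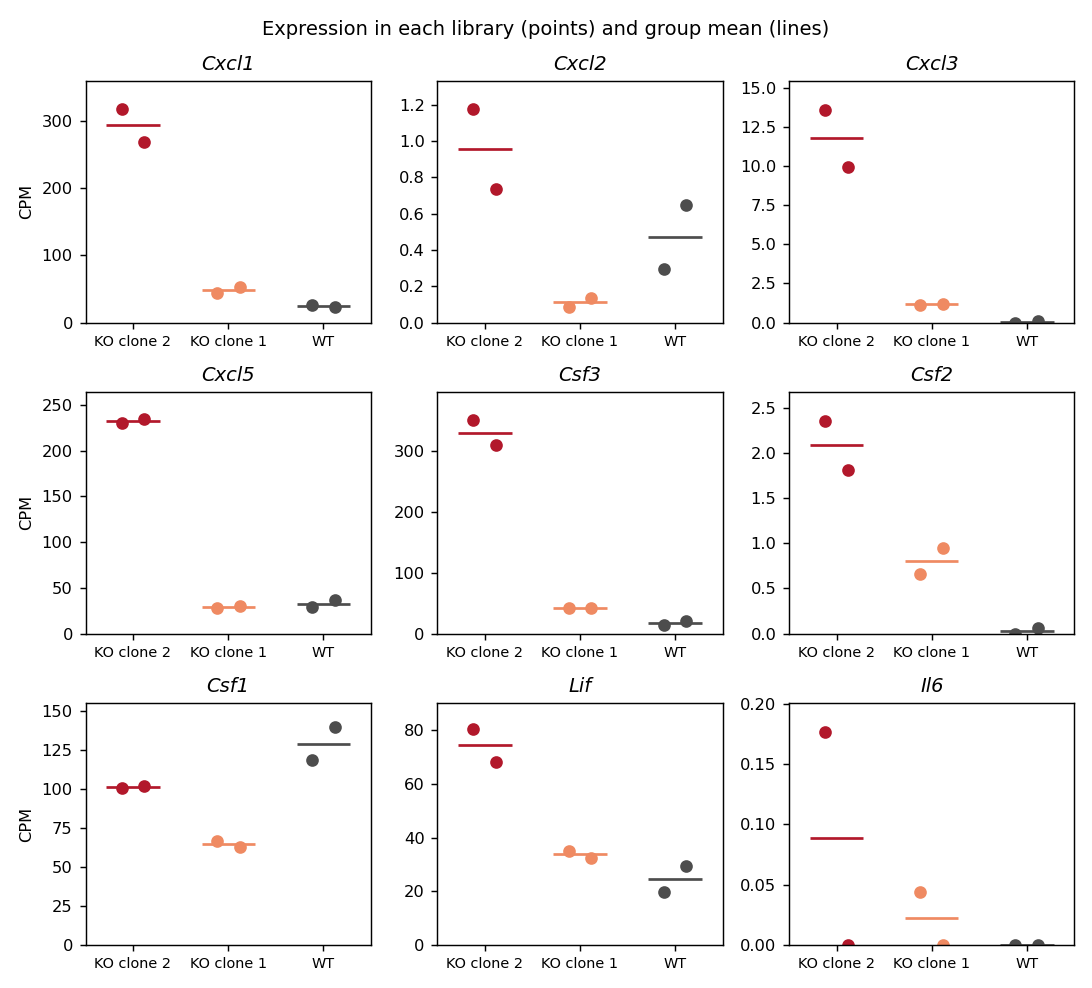
Level of each of the 9 genes in CPM (vertical axis, linear, each panel with its own scale from 0) in KO clone 2, KO clone 1 and WT. Points are single libraries and lines are means of 2 libraries; Cxcl1, Cxcl5 and Csf3 exceed 200 CPM only in KO clone 2, and Csf1 is highest in WT.

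Among the chemokines, Cxcl1 was higher in both knockout clones than in WT and far higher in KO clone 2. Cxcl1 (ENSMUSG00000029380; GRCm38 chromosome 5, 90891241 to 90893115, plus strand), a main neutrophil attractant in the mouse, had 318 and 268 CPM in KO clone 2, 43.7 and 53.5 CPM in KO clone 1, and 25.4 and 23.5 CPM in WT. The groups did not overlap and stood in the order KO clone 2, KO clone 1, WT. The log2 fold change was 3.58 in KO clone 2 (SE 0.146, adjusted p = 1.43e-09) and 0.99 in KO clone 1 (SE 0.136, adjusted p = 5.18e-05), both against WT, which is 11.98-fold and 1.99-fold. Unless another fit or a left-out library is named, adjusted p-values are Benjamini-Hochberg values of edgeR's quasi-likelihood test over all 13755 genes. A gene was called where its adjusted p was under 0.05. In whole-culture RNA, fewer cells that make a transcript and less of it per cell cannot be told apart.

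Cxcl5 rose in KO clone 2 and was close to the WT level in KO clone 1. Cxcl5 (ENSMUSG00000029371; chromosome 5, 90759360 to 90761624, plus strand), another Cxcr2 ligand, had 230 and 234 CPM in KO clone 2, 28.3 and 30.6 CPM in KO clone 1, and 29.6 and 36.3 CPM in WT. Both libraries of KO clone 2 lay above all others, and those of KO clone 1 and WT overlapped. The log2 fold change was 2.81 in KO clone 2 (SE 0.131, 7.03-fold, adjusted p = 3.45e-09). In KO clone 1 it was -0.17 (95% interval -0.44 to 0.11, adjusted p = 0.294), an interval that holds no change as large as that in KO clone 2.

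Cxcl3 was all but unread in WT. Cxcl3 (ENSMUSG00000029379; chromosome 5, 90786103 to 90789600, plus strand) had 231 and 230 reads in KO clone 2, 26 and 27 reads in KO clone 1, and 0 and 2 reads in WT. This corresponds to 13.6 and 9.93 CPM in KO clone 2, 1.15 and 1.21 CPM in KO clone 1, and 0 and 0.118 CPM in WT, again without overlap. Scaled for depth, the ratio of reads to WT was 155 for KO clone 2 (exact 95% interval 42.8 to 1287) and 15.97 for KO clone 1 (4.21 to 135), where the intervals cover counting error only. The adjusted p was 2.47e-08 for KO clone 2 and 0.000219 for KO clone 1. The fitted log2 fold changes, 7.19 in KO clone 2 and 3.89 in KO clone 1, depend on how a count near 0 is treated.

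Cxcl2 was the exception among the chemokines. Cxcl2 (ENSMUSG00000058427; chromosome 5, 90903871 to 90905938, plus strand) was read 20 and 17 times in KO clone 2, 2 and 3 times in KO clone 1, and 3 and 11 times in WT. Its level was 1.18 and 0.734 CPM in KO clone 2, 0.0882 and 0.135 CPM in KO clone 1, and 0.296 and 0.650 CPM in WT. Every library of KO clone 1 lay below all others, and both of KO clone 2 lay above those of WT, though by less than the spread between the libraries of WT for the lower of them. Against WT the log2 fold change was 0.85 in KO clone 2 (95% interval -0.18 to 1.89, adjusted p = 0.152) and -2.14 in KO clone 1 (-3.66 to -0.61, adjusted p = 0.0223). The call in KO clone 1 was lost without WT replicate 2 (-1.36, adjusted p = 0.34), without KO clone 1 replicate 1 (adjusted p = 0.108) or without KO clone 1 replicate 2 (adjusted p = 0.0544). Cxcl2 and Cxcl3 share 61 stretches of 50 bases, 3.37% of those of Cxcl2 and 6.31% of those of Cxcl3, and reads that map to several places are not in the counts.

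Of the colony-stimulating factors, Csf3 showed the largest gain in CPM. Csf3 (ENSMUSG00000038067; chromosome 11, 98701263 to 98703629, plus strand), which encodes granulocyte colony-stimulating factor, had 351 and 311 CPM in KO clone 2, 41.9 and 41.5 CPM in KO clone 1, and 14.2 and 20.8 CPM in WT. The groups did not overlap, and the order was that of Cxcl1. The log2 fold change against WT was 4.23 in KO clone 2 (SE 0.17, 18.8-fold, adjusted p = 1.32e-09) and 1.24 in KO clone 1 (SE 0.156, 2.36-fold, adjusted p = 2.45e-05). Ranked by fold change in KO clone 2 over the 13755 genes, Cxcl3 stood at place 5, Csf2 at 17, Csf3 at 36, Cxcl1 at 51 and Cxcl5 at 105, the places of Cxcl3 and Csf2 resting on fitted values with almost no read in WT.

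Csf2 had low levels in the knockout clones and almost none in WT. Csf2 (ENSMUSG00000018916; chromosome 11, 54247271 to 54249667, minus strand), the granulocyte-macrophage factor, was read 40 and 42 times in KO clone 2, 15 and 21 times in KO clone 1, and 0 and 1 times in WT. Its level was 2.36 and 1.81 CPM in KO clone 2, 0.661 and 0.944 CPM in KO clone 1, and 0 and 0.0591 CPM in WT. The ratio of reads to WT was 55.3 for KO clone 2 (exact 95% interval 9.65 to 2210, adjusted p = 9.12e-06) and 21.7 for KO clone 1 (3.65 to 880, adjusted p = 0.000616). The antisense gene Gm12223 overlaps Csf2 and had 1 read in KO clone 2, 4 reads in KO clone 1 and 0 in WT, while Csf2 had 82 reads in KO clone 2, 36 in KO clone 1 and 1 in WT.

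Csf1 fell, unlike Csf3 and Csf2. Csf1 (ENSMUSG00000014599; chromosome 3, 107741048 to 107760469, minus strand), whose product maintains macrophages, had 101 and 102 CPM in KO clone 2, 66.6 and 62.6 CPM in KO clone 1, and 118 and 140 CPM in WT. No groups overlapped, and the lowest was KO clone 1. The log2 fold change against WT was -0.35 in KO clone 2 (SE 0.117, 0.783-fold, adjusted p = 0.0215) and -0.999 in KO clone 1 (SE 0.119, 0.501-fold, adjusted p = 1.44e-05). The call in KO clone 2 did not hold without WT replicate 2 (-0.22, adjusted p = 0.124), KO clone 1 replicate 2 (adjusted p = 0.0536) or either library of KO clone 2 (adjusted p = 0.0979 without replicate 1 and 0.0652 without replicate 2). It was also lost once the median shift of chromosome 3 genes was taken out (-0.17, adjusted p = 0.237).

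Of the gp130 cytokines, Lif rose and Il6 was barely read. Lif (ENSMUSG00000034394; chromosome 11, 4257557 to 4272514, plus strand), leukaemia inhibitory factor, had 80.4 and 68.4 CPM in KO clone 2, 35.1 and 32.5 CPM in KO clone 1, and 19.8 and 29.6 CPM in WT. All 3 groups stood apart, with KO clone 1 closer to WT than to KO clone 2. The log2 fold change was 1.58 in KO clone 2 (SE 0.168, 2.99-fold, adjusted p = 4.81e-06) and 0.44 in KO clone 1 (SE 0.166, 1.36-fold, adjusted p = 0.0404). The call in KO clone 1 was lost when any library other than WT replicate 2 was left out (for WT replicate 1, 0.20 with adjusted p = 0.255). Il6 (ENSMUSG00000025746; chromosome 5, 30013114 to 30019981, plus strand), interleukin 6, had 3 and 0 reads in KO clone 2, 1 and 0 reads in KO clone 1, and 0 reads in both WT libraries. It was therefore not tested, and at this depth the groups could not be told apart: 3 counts over a group correspond to 0.0747 CPM in KO clone 2, 0.0668 CPM in KO clone 1 and 0.111 CPM in WT.

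Counted over the 8 tested genes, 6 were called higher and 1 (Csf1) lower in KO clone 2 against WT, where 25.2% and 27.9% of all tested genes were called higher and lower. In KO clone 1 against WT, 5 were called higher and 2 (Cxcl2 and Csf1) lower, where 24.5% and 26.0% of all tested genes were called. These comparisons share the WT libraries. Cxcl2 had enough reads to be tested only through KO clone 2, and Cxcl3 and Csf2 only through the knockout clones. These 3 genes thus entered the counts through the groups in which they were high. With KO clone 1 and WT fitted alone, 7 of the genes were tested. For the mean of both clones 6 were higher (26.5% of all genes) and 1 lower (29.3%). The median log2 fold change of the 8 genes was 3.20 in KO clone 2 and 0.72 in KO clone 1. For all tested genes it was -0.02 in KO clone 2 and -0.01 in KO clone 1. Cxcl3 and Csf2 lie above both medians of the 8 genes, whatever their exact fitted values. Both medians would be lower without Cxcl3 and Csf2, which were tested only through the knockout clones. Both libraries of KO clone 2 exceeded both of WT for 7 of the 8 genes (35.8% of all tested genes), and those of KO clone 1 did so for 5 (37.3%). Added over all 9 genes, the levels came to 1098 and 996 CPM in KO clone 2, 218 and 223 CPM in KO clone 1, and 208 and 251 CPM in WT. KO clone 1 and WT thus overlapped in the sum, in which the higher Cxcl1, Csf3 and Lif of KO clone 1 stood beside a lower Csf1.

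**Figure D2:**
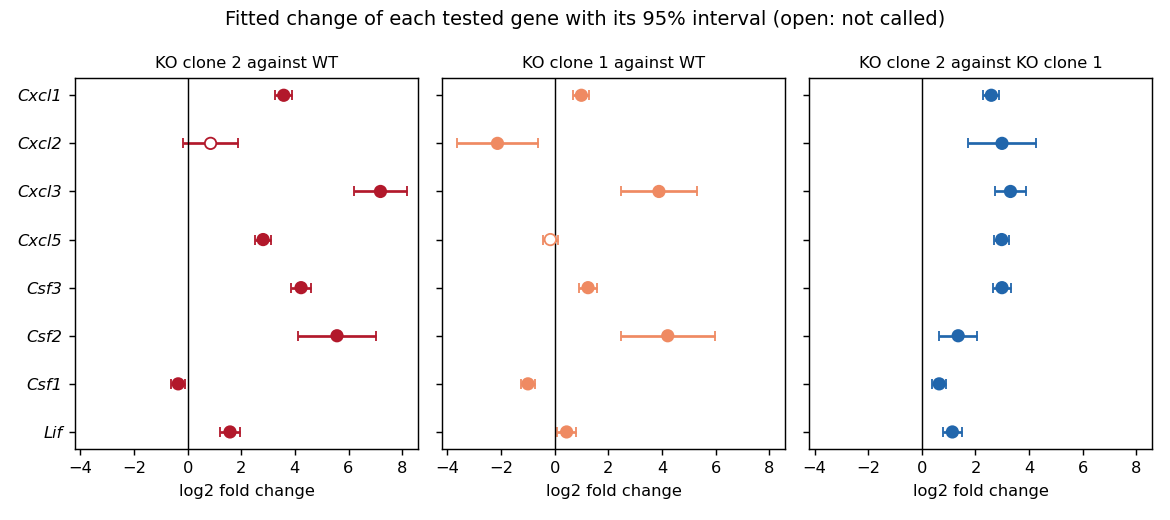
Fitted log2 fold change (horizontal axis) of the 8 tested genes with its 95% interval, for KO clone 2 against WT, KO clone 1 against WT, and KO clone 2 against KO clone 1. Filled points were called and open points were not; all 8 genes lie right of 0 between the clones, and the wide intervals belong to Cxcl2, Cxcl3 and Csf2, which have few reads.

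The clones differed from each other for every tested gene of the group. All 8 were called higher in KO clone 2 than in KO clone 1, where 11.3% of all tested genes were called higher and 10.7% lower. Cxcl2 is among the 8 only through its reads in KO clone 2. Both libraries of KO clone 2 also exceeded both of KO clone 1 for all 8, as they did for 34.0% of all tested genes. With a minimum change of 1.5-fold 6 of the 8 were called higher, and Csf1 (adjusted p = 0.989) and Csf2 (adjusted p = 0.13) were not. For the chemokines and Csf3, the log2 fold changes of KO clone 2 over KO clone 1 ran from 2.59 to 3.3 (Cxcl3). They came to 2.59 for Cxcl1 (SE 0.138, 6.02-fold, adjusted p = 9.36e-08), 2.98 for Cxcl5 (SE 0.131, adjusted p = 1.21e-08), 2.99 for Csf3 (SE 0.158, 7.94-fold, adjusted p = 9.36e-08) and 2.99 for Cxcl2 (SE 0.581, adjusted p = 0.00352). For Cxcl3 the ratio of reads was 9.74 (exact 95% interval 7.32 to 13.2). Lif differed by 1.14 (SE 0.164, adjusted p = 0.000505), Csf2 by 1.36 (SE 0.327, adjusted p = 0.00971) and Csf1 by 0.65 (SE 0.118, adjusted p = 0.00249). For Csf1 the higher value of KO clone 2 lay between those of KO clone 1 and WT. For 5 genes (Cxcl1, Cxcl3, Csf3, Csf2 and Lif) both libraries of KO clone 2 exceeded both of KO clone 1 and these exceeded both of WT. This was an order that 11.4% of all tested genes showed. The call of Cxcl2 was lost without KO clone 2 replicate 1 (adjusted p = 0.0681), and that of Csf2 without replicate 1 of KO clone 2 (adjusted p = 0.113) or of KO clone 1 (adjusted p = 0.112).

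Levels of different genes were compared per kilobase of merged exons. In KO clone 2 the order was Csf3 at 234 ± 20.2 CPM per kb, Cxcl1 at 156 ± 18.7, Cxcl5 at 125 ± 1.41, Csf1 at 19.1 and Lif at 17.1 CPM per kb, with Cxcl3, Csf2, Cxcl2 and Il6 following at 3.36 CPM per kb or less. In KO clone 1 Csf3 (29.5 CPM per kb) and Cxcl1 (25.9 ± 3.70) did not differ beyond their spread and were followed by Cxcl5 (15.8), Csf1 (12.2) and Lif (7.77 CPM per kb). In WT Csf1 came first at 24.4 ± 2.83 CPM per kb, then Cxcl5 at 17.7 ± 2.55, with Cxcl1 (13.1 ± 0.733) and Csf3 (12.4 ± 3.29 CPM per kb) within their spread of each other. The gene with the highest level was thus a macrophage factor in WT and the granulocyte factor in KO clone 2. With the longest coding transcript as the length, chosen as an alternative after the values were seen, Cxcl1 came first in KO clone 2 (307 CPM per kb) and KO clone 1 (51.0), and Csf1 stayed first in WT.

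Several receptors of these ligands had no read in the cells. Of 12 receptor genes 5 were tested, and 5 others (Cxcr1, Ackr1, Csf2ra, Csf2rb and Csf3r) had no read in any library, among them the receptor for granulocyte colony-stimulating factor. Csf1r, Cxcr2 and Csf3r are also among the macrophage or neutrophil markers above. Cxcr2, the receptor of the chemokines on neutrophils, averaged 0.0216 CPM in KO clone 2, 0.0220 CPM in KO clone 1 and 0.0295 CPM in WT, below the value of 3 counts. Of the 5 tested, 2 were called higher (Csf1r and Osmr) and 2 lower (Il6ra and Lifr) in each clone against WT, beside 25.2% and 27.9% of all tested genes in KO clone 2 and 24.5% and 26.0% in KO clone 1. The median log2 fold change was -0.27 in KO clone 2 and -0.25 in KO clone 1. Lifr, the receptor of Lif, averaged 0.334 ± 0.139 CPM in KO clone 2, 0.422 ± 0.0885 CPM in KO clone 1 and 2.23 ± 0.0591 CPM in WT (log2 fold change -2.66, adjusted p = 7.63e-05 for KO clone 2, and -2.37, adjusted p = 0.000133 for KO clone 1). Il6ra, the ligand-binding receptor of interleukin 6, averaged 9.60 ± 1.33 CPM in KO clone 2, 8.15 ± 0.0513 CPM in KO clone 1 and 23.2 ± 1.80 CPM in WT. Its log2 fold change was -1.27 in KO clone 2 and -1.51 in KO clone 1. Csf1r, the receptor of Csf1, was read 51 and 75 times in KO clone 2, 54 and 46 times in KO clone 1, and 10 and 22 times in WT. The opposite strand of the gene held more reads, 243 and 269 in KO clone 2, 223 and 177 in KO clone 1, and 94 and 117 in WT. Whether some of the counted reads came from a transcript of that strand was not tested. The log2 fold change of Csf1r was 1.41 in KO clone 2 and 0.92 in KO clone 1. That in KO clone 1 was not called in 4 of 19 alternatives, among them the DESeq2 Wald test (adjusted p = 0.0929). The others were a minimum change of 1.5-fold and leaving out WT replicate 1 (log2 fold change 0.78) or KO clone 1 replicate 1 (0.82). Osmr, which pairs with gp130 for oncostatin M, had log2 fold changes of 0.75 in KO clone 2 and 0.60 in KO clone 1, where the call was lost without WT replicate 2 (adjusted p = 0.123) or KO clone 1 replicate 1 (adjusted p = 0.0681). Il6st, which encodes gp130 itself, averaged 149 ± 3.65 CPM in KO clone 2, 151 ± 12.2 CPM in KO clone 1 and 180 ± 7.75 CPM in WT and was not called in either clone (adjusted p = 0.0569 for KO clone 2 and 0.075 for KO clone 1).

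Among inducers of these genes, the interleukin 1 genes rose most. Of 12 genes for inducing cytokines, their receptors and adaptors, 10 were tested, of which 8 were called higher and 0 lower in KO clone 2 against WT (25.2% and 27.9% of all tested genes), and 7 higher and 1 (Il17rc) lower in KO clone 1 (24.5% and 26.0%). Their median log2 fold change was 0.66 in KO clone 2 and 0.44 in KO clone 1. Il1a, the alarmin form of interleukin 1, had 552 and 540 CPM in KO clone 2, 18.1 and 21.6 CPM in KO clone 1, and 8.09 and 6.85 CPM in WT. This was a log2 fold change of 6.20 in KO clone 2 (SE 0.157, adjusted p = 1.27e-11) and 1.42 in KO clone 1 (SE 0.139, adjusted p = 2.46e-06), with the order of groups seen for Cxcl1 and Csf3. Il1b averaged 2.12 ± 0.244 CPM in KO clone 2, 0.781 ± 0.231 CPM in KO clone 1 and 0.167 ± 0.0973 CPM in WT (log2 fold change 3.49, adjusted p = 4.35e-05 for KO clone 2; 2.04, adjusted p = 0.00859 for KO clone 1, lost without KO clone 1 replicate 2 with adjusted p = 0.0637). Il1r1, the signalling receptor of interleukin 1, averaged 17.6 ± 0.0757 CPM in KO clone 2, 22.2 ± 0.374 CPM in KO clone 1 and 10.9 ± 0.207 CPM in WT. Il17ra, a receptor chain for interleukin 17, had log2 fold changes of 0.86 in KO clone 2 and 0.67 in KO clone 1. Between the clones 5 of the 10 were called higher in KO clone 2 and 0 lower (11.3% and 10.7% of all tested genes). Il17a, which encodes interleukin 17A, had no read. Tnf averaged 0.328 CPM in KO clone 2, 0.201 CPM in KO clone 1 and 0.0591 CPM in WT, too few reads to be tested.

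All 12 listed transcription factors of the NF-kappaB, AP-1 and C/EBP families were tested. In KO clone 2 against WT, 9 were called higher and 1 (Jun) lower (25.2% and 27.9% of all tested genes). In KO clone 1, 5 were called higher and 1 (Cebpd) lower (24.5% and 26.0%). The median log2 fold changes were 0.82 in KO clone 2 and 0.38 in KO clone 1. Fosl1, which encodes the AP-1 subunit Fra-1, averaged 89.0 ± 9.56 CPM in KO clone 2, 62.1 ± 3.48 CPM in KO clone 1 and 13.0 ± 0.970 CPM in WT (log2 fold change 2.77, adjusted p = 5.08e-09 for KO clone 2; 2.25, adjusted p = 3.01e-08 for KO clone 1). Junb, another AP-1 subunit, had log2 fold changes of 1.499 in KO clone 2 and 1.20 in KO clone 1. Nfkb2, the precursor of the p52 subunit of NF-kappaB, had 1.18 in KO clone 2 and 0.88 in KO clone 1, and Rela, the p65 subunit, 0.69 in KO clone 2 and 0.60 in KO clone 1. In each clone the AP-1 genes of these 4, which were picked by adjusted p, had the larger fold changes. The order does not extend to the families. The AP-1 gene Fos had 0.66 in each clone and was not called. The NF-kappaB gene Relb had 1.14 in KO clone 2 and 0.77 in KO clone 1 and was called in both. Between the clones, 5 were called higher in KO clone 2 (Cebpd, Cebpb, Nfkbiz, Nfkb1 and Fosl1) and 1 lower (Jun), beside 11.3% and 10.7% of all tested genes. The Fosl1 call was lost without KO clone 2 replicate 1 (adjusted p = 0.12), KO clone 1 replicate 1 (0.128) or KO clone 1 replicate 2 (0.0615). Of the 6, Cebpd, Cebpb and Nfkbiz were picked for description after their values were seen. Cebpd averaged 6.09 ± 1.22 CPM in KO clone 2, 1.36 ± 0.0505 CPM in KO clone 1 and 3.08 ± 0.520 CPM in WT (log2 fold change between the clones 2.15, adjusted p = 7.56e-05), the order of groups also seen for Cxcl2. Its counted reads were 118 and 121 in KO clone 2, 30 and 31 in KO clone 1, and 35 and 46 in WT. The opposite strand held 75 and 99 in KO clone 2, 119 and 120 in KO clone 1, and 55 and 88 in WT. Whether some counted reads of Cebpd came from a transcript of that strand was not tested. Cebpb had 203 ± 9.93 CPM in KO clone 2, 104 ± 0.527 CPM in KO clone 1 and 111 ± 35.9 CPM in WT (0.96 between the clones, adjusted p = 0.00376). Nfkbiz, the cofactor of NF-kappaB that is required for a subset of its targets, had 58.3 ± 0.0978 CPM in KO clone 2, 30.1 ± 0.831 CPM in KO clone 1 and 36.7 ± 5.42 CPM in WT (0.95 between the clones, adjusted p = 0.000308).

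Among 10 genes that govern the decay of cytokine mRNAs, 7 were called higher and 1 (Rc3h1) lower in each clone against WT, beside 25.2% and 27.9% of all tested genes in KO clone 2 and 24.5% and 26.0% in KO clone 1. The median log2 fold changes were 0.73 in KO clone 2 and 0.74 in KO clone 1. Zc3h12a, the endonuclease Regnase-1 that cuts Il6 and other cytokine mRNAs, had 34.2 and 34.5 CPM in KO clone 2, 12.4 and 11.6 CPM in KO clone 1, and 5.52 and 8.21 CPM in WT. It had log2 fold changes of 2.30 in KO clone 2 (adjusted p = 2.21e-07) and 0.78 in KO clone 1 (adjusted p = 0.00232), and KO clone 2 exceeded KO clone 1 by 1.52 (adjusted p = 5.52e-05). Arid5a, which protects Il6 mRNA from Regnase-1, averaged 173 ± 25.1 CPM in KO clone 2, 124 ± 0.398 CPM in KO clone 1 and 34.3 ± 0.450 CPM in WT (log2 fold change 2.33 in KO clone 2 and 1.85 in KO clone 1). Zfp36l2 and Khsrp bind AU-rich elements and promote decay. Their log2 fold changes were 0.86 and 0.73 in KO clone 2 and 1.31 and 0.93 in KO clone 1. Both lie on chromosome 17, whose genes had a median log2 fold change of 0.17 in KO clone 2 and 0.55 in KO clone 1. Over the 19 alternatives to this fit, the values in KO clone 1 went as low as 0.76 for Zfp36l2 and 0.38 for Khsrp. The list therefore held risen genes with opposite known effects on the same mRNAs.

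Of 10 genes that signal below the cytokine receptors, 3 were called higher and 4 lower in KO clone 2 against WT, and 1 higher and 4 lower in KO clone 1. Of all tested genes 25.2% were called higher and 27.9% lower in KO clone 2, and 24.5% and 26.0% in KO clone 1, so these counts of 10 lie near the background or differ from it by few genes. The median log2 fold change was -0.19 in KO clone 2 and -0.37 in KO clone 1. Stat5a averaged 3.40 ± 0.353 CPM in KO clone 2, 5.23 ± 0.336 CPM in KO clone 1 and 28.8 ± 6.85 CPM in WT (log2 fold change -3.10, adjusted p = 4.5e-08 for KO clone 2; -2.47, adjusted p = 2.49e-07 for KO clone 1). The kinase gene Jak2 had log2 fold changes of -1.38 in KO clone 2 and -0.68 in KO clone 1. Tyk2, a related kinase gene, had -0.38 in KO clone 2 (adjusted p = 0.0419) and -0.51 in KO clone 1 (adjusted p = 0.011), but the call in KO clone 2 was lost in 12 of 19 alternatives, the DESeq2 Wald test (adjusted p = 0.0584) and either of its own libraries left out (0.149 and 0.159) among them. Without WT replicate 2 neither call held (adjusted p = 0.438 for KO clone 2 and 0.126 for KO clone 1), nor did that in KO clone 1 without its replicate 2 (0.0866). Socs3, the feedback inhibitor of gp130 and of the receptor for granulocyte colony-stimulating factor, averaged 23.4 ± 0.157 CPM in KO clone 2, 18.1 ± 0.128 CPM in KO clone 1 and 9.58 ± 1.83 CPM in WT (1.27, adjusted p = 1.55e-05 for KO clone 2; 0.91, adjusted p = 0.000301 for KO clone 1).

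Related cytokines moved in both directions. Of 12 listed genes 7 were tested, of which 3 were called higher and 1 lower in KO clone 2 against WT (25.2% and 27.9% of all tested genes). In KO clone 1, 2 were higher and 1 lower (24.5% and 26.0%). The median log2 fold changes were -0.21 in KO clone 2 and 0.19 in KO clone 1. Clcf1, which like Lif signals through gp130, averaged 52.7 ± 5.73 CPM in KO clone 2, 48.2 ± 1.21 CPM in KO clone 1 and 16.4 ± 2.23 CPM in WT (log2 fold change 1.68, adjusted p = 4.93e-07 for KO clone 2; 1.55, adjusted p = 1.13e-06 for KO clone 1). Tslp, an epithelial cytokine, had log2 fold changes of 0.71 in KO clone 2 and 0.69 in KO clone 1. Kitl, the stem cell factor, averaged 4.41 ± 0.00953 CPM in KO clone 2, 10.1 ± 0.237 CPM in KO clone 1 and 25.1 ± 1.44 CPM in WT (-2.51 in KO clone 2 and -1.31 in KO clone 1). Of the other chemokines encoded in the same cluster as Cxcl1, Cxcl15 and Pf4 had no read. Ppbp had 0.530 and 0.475 CPM in KO clone 2, 0.220 and 0.180 CPM in KO clone 1, and 0.296 and 0.354 CPM in WT, too low to be tested.

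**Figure D3:**
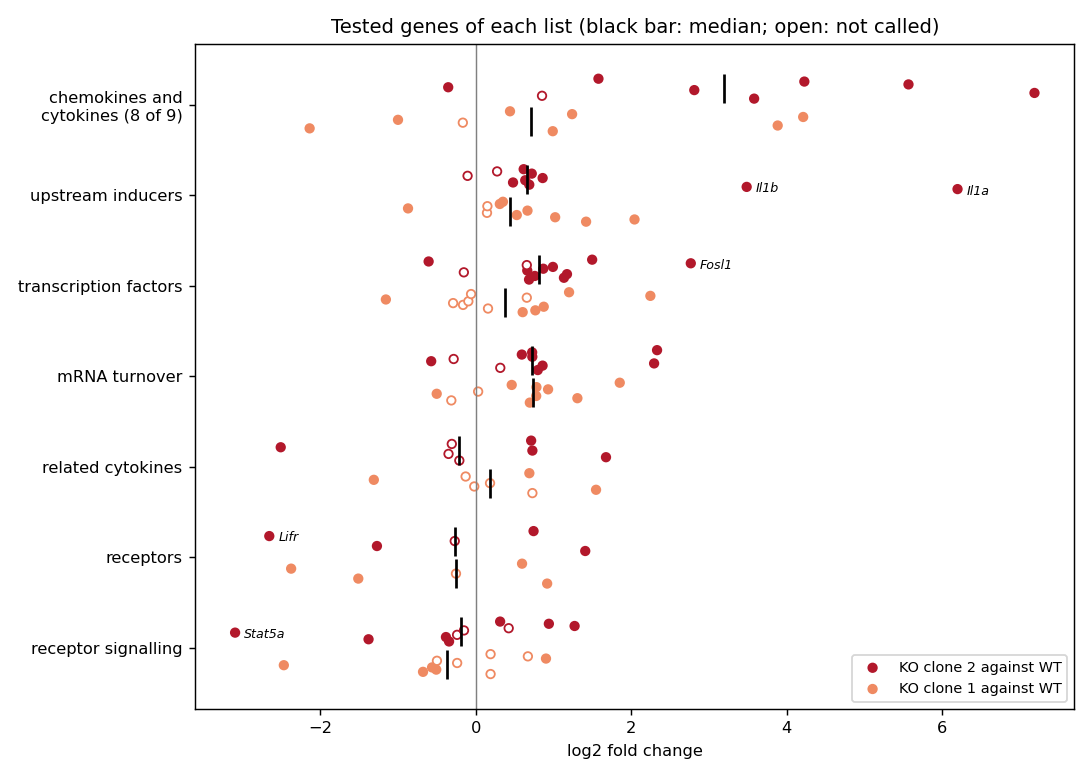
Log2 fold change against WT (horizontal axis) of each tested gene in the 7 lists, for KO clone 2 (dark red) and KO clone 1 (orange). Filled points were called, open points were not, and black bars are list medians; the 8 chemokines and cytokines reach a median of 3.20 in KO clone 2, and Il1a stands alone at 6.20 among the inducers.

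The pattern over the 6 libraries was compared with that of the 9212 tested genes whose log2 CPM averaged 3 or more, by the Euclidean distance between centred log2 CPM. The nearest gene to Csf3 was Cxcl1 and the nearest to Cxcl1 was Csf3 (distance 0.846 log2 units), although they lie on different chromosomes. After Cxcl1, Csf3 was closest to Mmp10 (1.10), a stromelysin, and Il24 (1.37), a cytokine of the interleukin 10 family. After Csf3, Cxcl1 was closest to the complement gene C3 (0.947) and to Il24 (1.01), while Cxcl5 stood at place 5 and Lif at place 46 of its list. C3 averaged 300 ± 3.87 CPM in KO clone 2, 81.9 ± 3.86 CPM in KO clone 1 and 40.7 ± 9.23 CPM in WT. It lies on chromosome 17, whose genes had a median log2 fold change of 0.55 in KO clone 1. Csf1 was closest to Mfge8 (0.126), which encodes a milk fat globule protein, to G930009F23Rik (0.145), a long non-coding RNA, and to the adhesion gene Nectin2 (0.147). Mfge8 averaged 120 ± 5.00 CPM in KO clone 2, 75.6 ± 4.45 CPM in KO clone 1 and 161 ± 23.4 CPM in WT, the order of groups seen for Csf1. These distances describe 6 libraries in 3 groups, and most of each distance is set by the group levels.

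The neighbourhood of the chemokine cluster on chromosome 5 was examined in a window of 500 kb to either side of Cxcl1, a choice made after the values were seen. It held 10 tested genes. Mthfd2l, a folate enzyme gene whose start lies 39.9 kb beyond that of Cxcl1, had log2 fold changes of 0.48 in KO clone 2 and 0.63 in KO clone 1 against WT, smaller than those of Cxcl1. Both calls were lost without WT replicate 2 (adjusted p = 0.22 in KO clone 2 and 0.0675 in KO clone 1), that in KO clone 2 also without either of its own libraries (0.122 and 0.13). That in KO clone 1 was also lost without its replicate 2 (0.0984). Farther out, Areg, the EGF receptor ligand amphiregulin, had log2 fold changes of 3.34 in KO clone 2 and 3.17 in KO clone 1, whereas Epgn, a related ligand gene between them, had -2.97 in KO clone 2 and -3.25 in KO clone 1. On the other side, Rassf6 had -0.63 in KO clone 2 and -0.81 in KO clone 1, and Afp, the alpha-fetoprotein gene, -2.58 in KO clone 2 and -4.38 in KO clone 1. Btc, 466 kb away, was not called in either clone (0.11 in KO clone 2 and 0.12 in KO clone 1). The genes of the window thus moved in both directions.

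**Figure D4:**
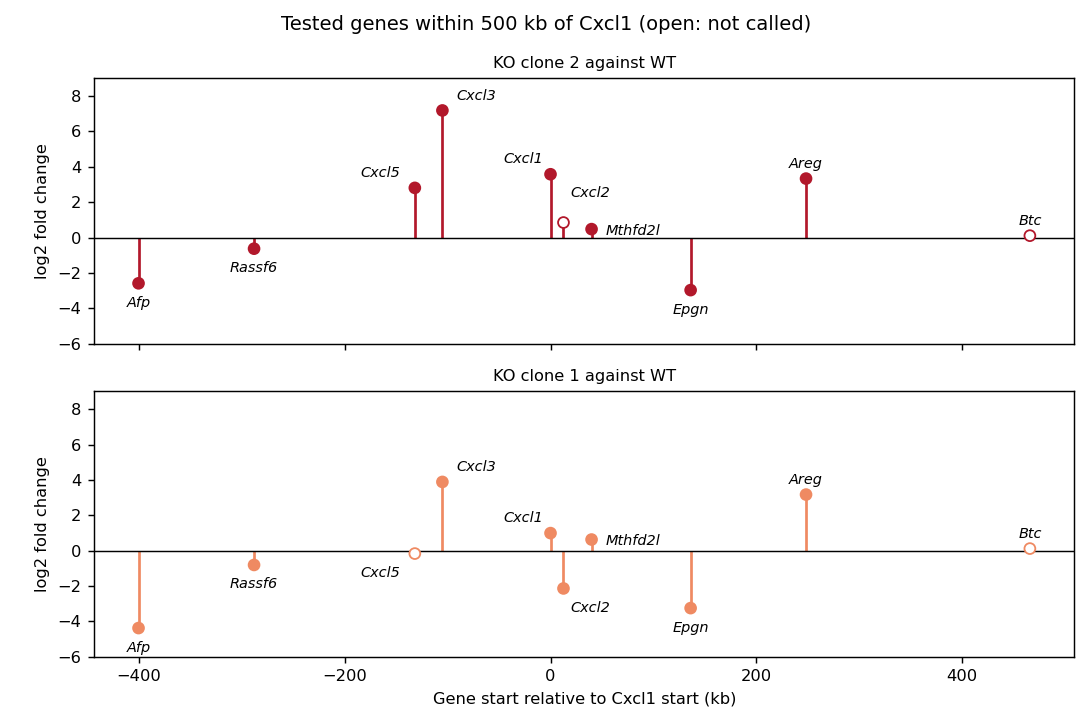
Log2 fold change against WT (vertical axis) of the 10 tested genes whose starts lie within 500 kb of that of Cxcl1 (horizontal axis, distance in kb), in KO clone 2 above and KO clone 1 below. Filled points were called and open points were not; Cxcl5 is at 2.81 in KO clone 2 and at -0.17 in KO clone 1, while Areg is near 3 in both clones.

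The nearest tested neighbours of the colony-stimulating factor genes and of Lif did not share a direction. Csf3 lies between Psmd3, a proteasome subunit gene 5.28 kb away, and Med24, a Mediator subunit gene 0.962 kb away. Psmd3 had log2 fold changes of 0.31 in KO clone 2, a call lost when any library other than WT replicate 2 was left out (adjusted p = 0.0779 to 0.158), and -0.27, not called, in KO clone 1. Med24 had 0.67 in KO clone 2 and 0.10, not called, in KO clone 1. For Csf3 itself the values were 4.23 in KO clone 2 and 1.24 in KO clone 1. The nearest tested genes beside Csf2 were P4ha2, a collagen prolyl hydroxylase gene 116 kb away, and Acsl6, a fatty acid ligase gene 54.1 kb away. Both fell while Csf2 rose. P4ha2 averaged 0.438 CPM in KO clone 2, 0.0666 CPM in KO clone 1 and 5.20 ± 0.661 CPM in WT. Acsl6 averaged 0.0942 CPM in KO clone 2, 0.0890 CPM in KO clone 1 and 3.84 ± 0.412 CPM in WT. Beside Csf1, the nearer neighbour Ahcyl1, 44.5 kb away, had 0.004 in KO clone 2 and 0.07 in KO clone 1, neither of them called. Ahcyl1 averaged 99.1 CPM in KO clone 2, 104 CPM in KO clone 1 and 99.0 CPM in WT. Gm36211, 59.8 kb away on the other side, had -2.75 in KO clone 2 and -2.90 in KO clone 1. Its levels were low, at 0.167 CPM in KO clone 2, 0.157 CPM in KO clone 1 and 1.17 CPM in WT. Beside Lif, Castor1, 35.1 kb away, had 0.99 in KO clone 2 and 0.22, not called, in KO clone 1. Mtmr3, 208 kb away on the other side, had -0.22, not called, in KO clone 2 and -0.42 in KO clone 1.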

How the data were processed

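Total RNA of 6 libraries of 4T1 cells, 2 in each of KO clone 2, KO clone 1 and WT, was sequenced on an Illumina HiSeq instrument after ribosomal RNA depletion and stranded library preparation, per the labels' protocols. The submitters' processing notes name FastQC, the aligner STAR 2.6.0c and the build GRCm38; the gene annotation release is not given in the sources used here. The deposited values are the authors' counts of uniquely mapped reads per gene, unstranded and for each strand, and are not normalized. The reverse-strand counts were used, which held 92.3% to 95.7% of stranded gene reads. Of all reads, 24.7% to 29.3% mapped to several places and are not counted, and 9.21% to 13.5% (no feature) and 1.90% to 2.74% (ambiguous) name no gene and stayed out of library sizes.

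Symbols and coordinates came from the GENCODE M21 annotation, which matched 54079 of 54146 IDs. Genes were kept with filterByExpr (13755), scaled by TMM and fitted with edgeR 4.0.16 in R 4.3.3 by the robust quasi-likelihood test, with 1 term per group over all 6 libraries, leaving 3 residual degrees of freedom. P-values were Benjamini-Hochberg adjusted over all tested genes. The estimated variation between duplicates beyond counting error, common to all genes, was 10.4% (coefficient of variation) and may be technical alone. The duplicates were not copies of a single library: a chi-square test of their counts gave 25.0 per degree of freedom in KO clone 2, 17.7 in KO clone 1 and 78.8 in WT. Read ratios have exact 95% intervals that cover counting error only, as do the floors of 3 counts. The procedure was tested on simulated data. DESeq2 1.42.0, limma 3.58.1, other filters and scalings, a minimum change of 1.5-fold, a replicate block and leaving out each library were the alternatives.

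The 9 genes and the lists were chosen with earlier results of these data known. Named besides them were up to 4 genes per list called in each clone, by smallest adjusted p for the mean of the clones, the 3 genes nearest in pattern to Csf3, Cxcl1 and Csf1, and tested neighbours within 500 kb. Amino acid sequences were not used here.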

Additional observations from a re-analysis of the deposited data

Results flagged for a closer look

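The effect against WT differed between the clones for all 8 tested genes, which was tested directly as KO clone 2 over KO clone 1 (adjusted p under 0.05 in each case). The log2 difference was 2.59 for Cxcl1, 2.99 for Cxcl2, 3.3 for Cxcl3, 2.98 for Cxcl5, 2.99 for Csf3, 1.36 for Csf2, 0.65 for Csf1 and 1.14 for Lif, all higher in KO clone 2.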

How the results depend on the processing

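Over 19 alternatives, the calls of Cxcl1, Cxcl3, Csf2 and Csf3 in each clone against WT, of Cxcl5 and Lif in KO clone 2, and of Cxcl1, Cxcl3, Cxcl5, Csf3 and Lif between the clones kept their direction and threshold. Of the values not called, Cxcl5 in KO clone 1 turned to 0.007 with each chromosome's median shift removed, and Cxcl2 for the mean of the clones ran from -0.98 (without WT replicate 1) to 0.14 (without WT replicate 2). With a minimum change of 1.5-fold, 1250 genes were called higher and 1782 lower in KO clone 2 against WT, 1123 and 1561 in KO clone 1, 1178 and 1692 for the mean, and 182 and 162 between the clones. The 9 genes then held 0 called lower in KO clone 2, 1 in KO clone 1 and 0 for the mean. The number called lower in KO clone 2 was also 0 with no filter, with only the groups compared or with chromosome shifts removed, and 0 to 1 with a library left out. In KO clone 1 it was 1 with the DESeq2 Wald test, the 1 CPM filter or only the groups compared, and 1 to 2 with a library left out. With a library left out, the calls between the clones came to 341 to 2365 genes higher and 284 to 2080 lower; 341 and 284 are without KO clone 2 replicate 1, and 2365 and 2080 without WT replicate 2. The cause was not tested. The Lif call in KO clone 1 was lost in 9 of 19 alternatives, with adjusted p = 0.0651 under upper-quartile scaling and 0.0506 with limma-voom. The Csf1 call in KO clone 2 was lost in 8 of 19. The DESeq2 Wald test also lost Cxcl2 in KO clone 1 and Csf2 between the clones (adjusted p = 0.0885 for each), and unstranded counts lost Csf2 between the clones (0.0633). Cxcl2 has no value under the 1 CPM filter, in KO clone 1 with only the groups compared, or between the clones with the DESeq2 Wald test, which gave no adjusted p.

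With the replicate block the 8 genes gave the same counts, 6 higher and 1 lower in KO clone 2, 5 and 2 in KO clone 1, 6 and 1 for the mean, and 8 and 0 between the clones, while over all genes it gave 3316 higher and 3712 lower in KO clone 2, 3187 and 3379 in KO clone 1, 3514 and 3875 for the mean, and 1278 and 1288 between the clones. Deviations of same-numbered libraries correlated at 0.029 for KO clone 2 and WT, -0.461 for KO clone 1 and WT, and 0.016 for the clones over 9212 genes, so the numbers do not pair them. Crossing the numbers, added after seeing the data, gave 3573 higher and 3719 lower in KO clone 1. WT replicate 1 was the shallowest library, and depth limits Cxcl2, Cxcl3, Csf2 and Il6 most: without WT replicate 2, which held every WT read of Cxcl3 and Csf2, their fitted changes in KO clone 2 became 10.80 and 8.30.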
